A study of Gallus gallus with 60 samples.

Results

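The Lohmann Selected Leghorn (LSL) is a laying hen line bred for egg production, and its cerebrum was described here in all 30 LSL hens of a series of 60 hens, chosen by the line named in their titles. Of these layers, 14 came from compartments of 54 hens and 16 from compartments of 36 hens of a small group housing system, at an age of 65 to 68 weeks. Each was measured on its own chicken gene array with total RNA of the posterior cerebrum. The labels name the right site, while the study's methods speak of posterior samples of both sides, so the side was not settled here. The methods state that hens were picked as stressed or unstressed birds and that several hens shared a compartment. Neither fact is in the labels, so the p-values below measure the spread between these samples, which need not be independent.

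The avian cerebrum holds a large pallium, which has excitatory neurons in several fields, above a striatum rich in inhibitory neurons and peptides such as enkephalin and substance P. Oligodendrocytes, astrocytes, microglia and vessels lie between the neurons, and the choroid plexus and the meninges border the tissue. A tissue piece can hold these parts in different shares. In such bulk samples, fewer cells of a type and less RNA per cell cannot be told apart.

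The deposited values were log2 signals, so 1 unit is a doubling. A row of the table summarised 1 or more probe sets of a gene or transcript, and 16317 rows passed a limit on low signal, 790 of them with identifiers of the form that control rows have. Of these, 7545 carried 1 gene name, for 7288 distinct genes. The brightest genes of the synaptic vesicle, myelin and astrocyte lists were SNAP25 with a mean of 12.19, MBP with 12.22 and AQP4 with 11.32. The lowest means in these lists were 9.40, 6.82 and 6.53. Of the pituitary hormone rows, PRL at 5.98 and POMC at 6.16 lay below the median signal of the arrays, which was 6.86, and GH lay near it at 6.86. The limit on the mean signal was 5.08.

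The arrays fell into a smaller and a larger set that no label names. The first principal component of the LSL hens took 26.5% of the variance and had scores of 0.18 to 0.33 in 10 hens and of −0.20 to −0.08 in the other 20. The 10 hens of the smaller set were those with the numbers 1, 2, 3, 4, 13, 14, 17, 18, 21 and 22, of which 4 came from groups of 54 and 6 from groups of 36. All LSL hens with numbers above 22 were in the larger set, and so were hens 7 and 8. No pair of an odd and the next even number was split between the sets. A total of 667 rows were higher and 813 lower by at least 0.4 in the smaller set. TAF13, a subunit of a basal transcription factor, averaged 7.29 ± 0.08 in the smaller and 8.22 ± 0.10 in the larger set, and SDF2 averaged 9.69 ± 0.07 in the smaller and 8.94 ± 0.09 in the larger set (SD, n = 10 and 20). What set the arrays apart was not tested. For the spread, the pairs, the modules and the separate levels, values with the mean of each set removed are therefore given as well.

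**Figure D1:**
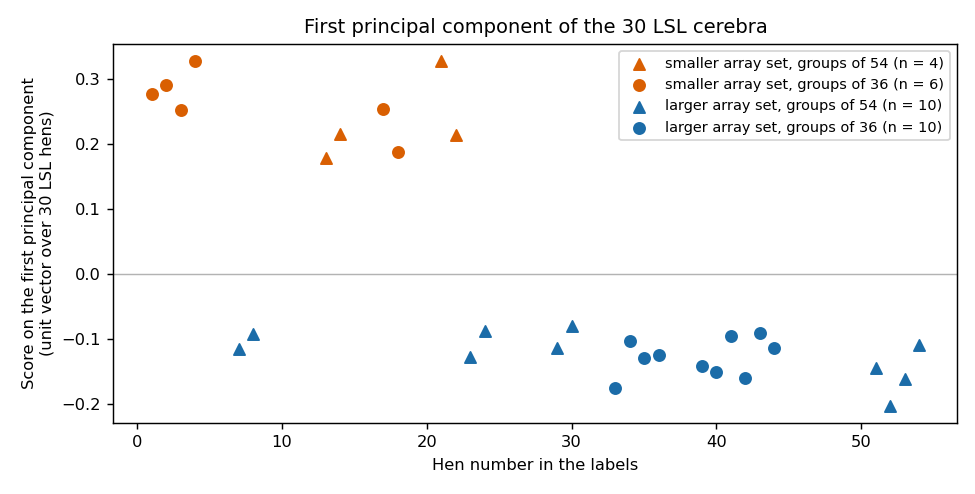
Score of each of the 30 LSL hens on the first principal component (vertical axis, no unit) against the hen number of the labels (horizontal axis). Triangles mark hens from groups of 54 and circles hens from groups of 36; the 10 hens in orange have scores of 0.18 to 0.33 and the 20 hens in blue scores of −0.20 to −0.08, with both group sizes in each set.

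The highest named signals came from the mitochondrial genome, which encodes core subunits of the respiratory chain. The 10 highest named rows all belonged to COX1, ND1, ND5, CYTB, COX3 and ND4, with means of 12.76 to 12.96. COX1, a subunit of cytochrome c oxidase, had a lowest signal of 12.90, a median of 12.96 and a highest of 13.06 over the 30 hens. These rows rest on 1 probe set each and lie near the top of the scale, where the highest mean of any tested row, named or not, was 13.51. The brightest nuclear genes were chosen after their values were seen: VSNL1, a neuronal calcium sensor, averaged 12.64, GAPDH of glycolysis 12.56 and YWHAB, a 14-3-3 protein, 12.39. A signal also depends on the binding of its probes, so this is an order of array signal and not of RNA amount.

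The spread between hens fell with the level, and the typical SD, the running median over 500 rows of like mean, ran between 0.24 at the lowest and 0.10 at the highest mean. The spread of a row was read as its SD over this typical SD. A ratio of at least 2 was seen in 1148 rows, which is 7.04% of the tested rows. Without the 790 rows of control form, which also takes them out of the typical SD, 912 rows reached it, of which 840 were among the 1148. Among the 6414 named rows with at least 3 probe sets, 247 reached it, or 3.85%. With the set means removed 232 rows reached it, of which 128 were among the 247. In the 30 LB hens of the series, the brown layer line, 229 of the same rows reached it as deposited. Of these, 136 did so in both lines, which is 55.1% of the LSL and 59.4% of the LB rows. With the set means removed, 220 rows reached it in LB and 115 in both lines, which is 49.6% of the LSL and 52.3% of the LB rows.

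**Figure D2:**
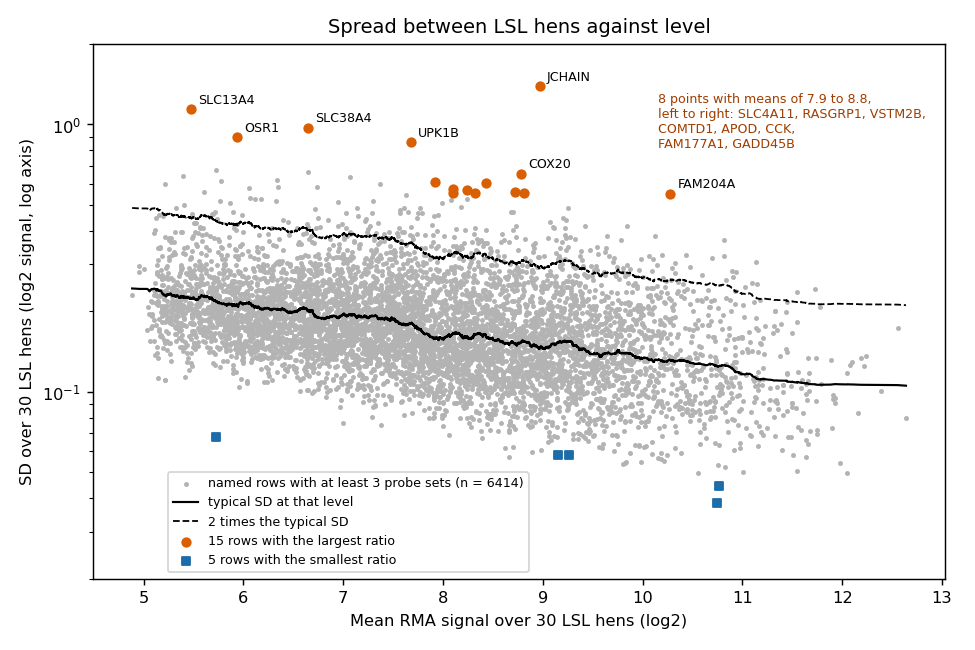
SD over the 30 LSL hens (vertical axis, log2 signal on a log axis) against the mean RMA signal (horizontal axis, log2) of 6414 named rows with at least 3 probe sets. The solid line is the typical SD and the dashed line 2 times that value; the 15 rows with the largest ratio, from JCHAIN at 9.51 to VSTM2B at 3.35, stand above the dashed line, and the 5 with the smallest lie below the solid line.

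JCHAIN joins the units of secreted IgA and IgM and is made by plasma cells. Among the named rows with at least 3 probe sets it spread most for its level, while an unnamed row of 8 probe sets had a ratio of 10.40. The 6 probe sets of JCHAIN gave a lowest signal of 6.23 in hen 42, a median of 9.30 and a highest of 11.25 in hen 54. The SD was 1.39 and the ratio 9.51 ± 1.23 (jackknife SE, n = 30). No gap met the rule for separate levels given further on, hens 54, 23, 18 and 4 being at the top with 11.25, 10.81, 10.61 and 10.53 and hens 42, 39 and 14 at the bottom with 6.23, 6.52 and 6.80. Hens from groups of 54 averaged 9.09 ± 1.25 and those from groups of 36 averaged 8.87 ± 1.53, so the group sizes overlapped. In the LB hens JCHAIN also spread widely, between 5.87 and 9.63 with a ratio of 5.75.

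Other lymphocyte genes were measured beside JCHAIN. Of the 17 measured genes of T cells, B cells and plasma cells, JCHAIN alone had a ratio of at least 2, against 4.01% of all named genes, and the median ratio of the list was 1.01. CD79B, part of the B cell receptor, ranged only between 5.60 and 6.15, and POU2AF1, a B cell coactivator, between 4.68 and 5.67. No gene of that list had an r of 0.5 or more with JCHAIN over the 30 hens, the highest being POU2AF1 with 0.24. The genes most like JCHAIN were UGT8, which makes the galactolipids of myelin, with r = 0.62, NPC2 with 0.62 and QKI with 0.60. These were the only 3 of the other 7287 named genes with an r over 0.6, while over all pairs of named genes 0.336% had an r over 0.6 with the set means removed. Of the 10 myelin genes, 4 had an r of at least 0.5 with JCHAIN, including MBP with 0.57 and SOX10 with 0.54, against 0.316% of all named genes. Hen 54 was highest in JCHAIN and in UGT8, and without it 1 of the 10 had such an r, with a median over the 10 of 0.44 in place of 0.50. Such an r was not particular to JCHAIN. It was seen for 7 of the 10 with APOD (1.4% of all named genes) and for 4 with SLC38A4 (1.06%), both wide rows described below. Without hen 54 these were 4 with APOD (8.22%) and 0 with SLC38A4 (0.851%). In the LB hens the r of UGT8 with JCHAIN was 0.36, that of NPC2 0.15 and that of QKI −0.02.

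SLC13A4, a sulfate transporter known in mammals from the choroid plexus and the meninges, stood out in a few hens. It read 9.57 in hen 51, 8.02 in hen 30, 7.77 in hen 44, 6.83 in hen 43 and 6.49 in hen 40, while the remaining hens lay between 4.51 and 5.52. The ratio was 5.10 ± 1.51 (jackknife SE, n = 30) and 3.73 without hen 51. In the LB hens SLC13A4 ranged between 4.69 and 6.17 with a ratio of 1.32.

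The row closest to SLC13A4 was SOD3, the extracellular superoxide dismutase, with r = 0.98 over the 30 hens. Its single probe set read 10.37 in hen 51, 9.25 in hen 30, 8.15 in hen 44, 7.64 in hen 43 and 7.57 in hen 40, against 5.90 or less in all others. SLC13A1, another sulfate transporter, followed with r = 0.93, at 7.95 in hen 51 and 6.87 in hen 30, and SLC30A8, a zinc transporter, with r = 0.80. The same 5 hens thus led in SLC13A4, SOD3 and SLC13A1. In the LB hens the r with SLC13A4 was 0.50 for SOD3, 0.32 for SLC13A1 and 0.41 for SLC30A8.

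Of the 16 other choroid plexus and ependyma genes, only the chloride channel protein CLIC6 had an r of at least 0.5 with SLC13A4 (r = 0.71), with 6.90 in hen 51 and 5.80 in the next hen, hen 24. The median r over the 16 was 0.11. RSPH1 and TEKT1, both of motile cilia, also had ratios above 2, at 2.40 and 2.11, and 3 of the 17 genes of the list reached that ratio (4 with the set means removed), against 4.01% of all named genes. FOXJ1, the regulator of motile cilia, had a ratio of 0.82. The share of choroid plexus in the tissue pieces was not tested.

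SLC38A4, an amino acid transporter, and OSR1, a transcription factor of mesenchyme, were high in another few hens. SLC38A4 read 9.18 in hen 51, 9.01 in hen 1 and 8.29 in hen 40, with a median of 6.37 and a lowest signal of 5.20. OSR1 read 8.63 in hen 1, 8.13 in hen 40 and 8.03 in hen 51, with 6.75 in the next hen and a median of 5.70. Hens 51, 1 and 40 thus led in both genes, whose r was 0.81 over the LSL hens and 0.75 over the LB hens. The genes next in likeness to SLC38A4 were DCN, the matrix proteoglycan decorin of fibroblasts, with r = 0.78, and SLC26A1, an anion transporter, with 0.76. Over the LB hens the r with SLC38A4 was 0.33 for DCN and 0.77 for SLC26A1.

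Decorin read 9.29 in hen 51, 9.02 in hen 40 and 9.00 in hen 1, and 8.99 in hen 54, so that its range ran on without a gap down to 8.22. ZIC1, a transcription factor of the cerebellum and the meninges, had an r of 0.75 with OSR1. Of the 17 vessel and meninges genes, DCN alone had an r of at least 0.5 with OSR1, and the median was 0.10. COL1A2, a chain of fibrillar collagen, had a ratio of only 0.69 and stayed between 6.10 and 6.66. The tissue was taken without meninges according to the labels, and the part that remnants of them had in these values was not tested.

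Several of the other wide rows with at least 3 probe sets were more even in their distribution. Named rows of fewer probe sets were left out of this ranking, among them QDPR with a ratio of 7.26 and GADD45A with 4.27. UPK1B, a tetraspanin first known from the bladder lining, ran between 5.94 in hen 34 and 9.35 in hen 13 around a median of 7.78, with a ratio of 4.77. Its nearest rows were LRRTM4, a synaptic adhesion protein, with r = 0.78, and UNC5D, a netrin receptor, with 0.74. The LRRTM4 row holds 1 probe set, and in the LB hens the r with UPK1B was 0.26 for LRRTM4 and 0.43 for UNC5D. FAM204A had a ratio of 4.19, SLC4A11 of the bicarbonate transporter family 3.83 and FAM177A1 3.71. Of the 15 widest named rows with at least 3 probe sets, 10 had a ratio of at least 2 in the LB hens. Those under 2 there were APOD with 1.93, UPK1B with 1.91, COMTD1 with 1.655, FAM177A1 with 1.34 and SLC13A4 with 1.32. With the set means removed, APOD had 2.43 and UPK1B 2.06 in the LB hens, and COX20 fell there from 3.88 to 1.74. COMTD1 with 1.84, FAM177A1 with 1.77 and SLC13A4 with 1.37 stayed under 2. RASGRP1, an activator of Ras, ran between 6.99 in hen 1 and 9.27 in hen 54, and COMTD1, named for its methyltransferase domain, between 7.12 in hen 1 and 9.18 in hen 17. Within the larger array set alone, COMTD1 was 1 of 6 named rows that met the rule for separate levels given further on.

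Both COX20, an assembly factor of cytochrome c oxidase, and GADD45B, induced by stress and by neuronal activity, differed in level between the array sets. COX20 averaged 7.96 ± 0.25 in the smaller and 9.19 ± 0.30 in the larger set, and GADD45B 8.15 ± 0.15 in the smaller and 9.14 ± 0.33 in the larger set (SD, n = 10 and 20). The ratio of COX20 was 4.28 as deposited and 2.49 with the set means removed, and that of GADD45B was 3.60 as deposited and 2.46 with the set means removed. APOD, a lipid carrier of glia, was far higher in 1 hen: hen 54 read 10.67, the next hen 9.01 and the lowest 7.57, and the ratio of 3.38 was 2.18 without hen 54.

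Among the named rows with at least 3 probe sets, CAPRIN1, STAB2, TRAK1, PUM2 and TLN2 had the least spread for their level. These rows summarise 20, 63, 17, 21 and 56 probe sets, against a median of 7 per tested row. The typical SD matches rows by mean level only, and the part of the number of probe sets in these ratios was not tested. STAB2 was also dim, with a mean of 5.72 against the limit of 5.08. CAPRIN1 and PUM2 bind mRNA, STAB2 is a scavenger receptor, TRAK1 an adaptor of mitochondrial transport, and TLN2 links integrins to actin. Some of the bright mitochondrial rows of 1 probe set had smaller ratios, such as a CYTB row with 0.20. These rows lie near the top of the scale and share values, such as 12.83 as the median of an ND5, a CYTB and a COX3 row. The part of the top of the scale in their small ratios was not tested. CAPRIN1 lay between 10.67 and 10.81 in all 30 hens, with a ratio of 0.31. TRAK1 lay between 10.68 and 10.88, with a ratio of 0.36. The synaptic vesicle genes were even as well, with a median ratio of 0.74 over 11 genes and no gene at 2 or more, against a median of 0.97 over all 7288 named genes.

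**Figure D3:**
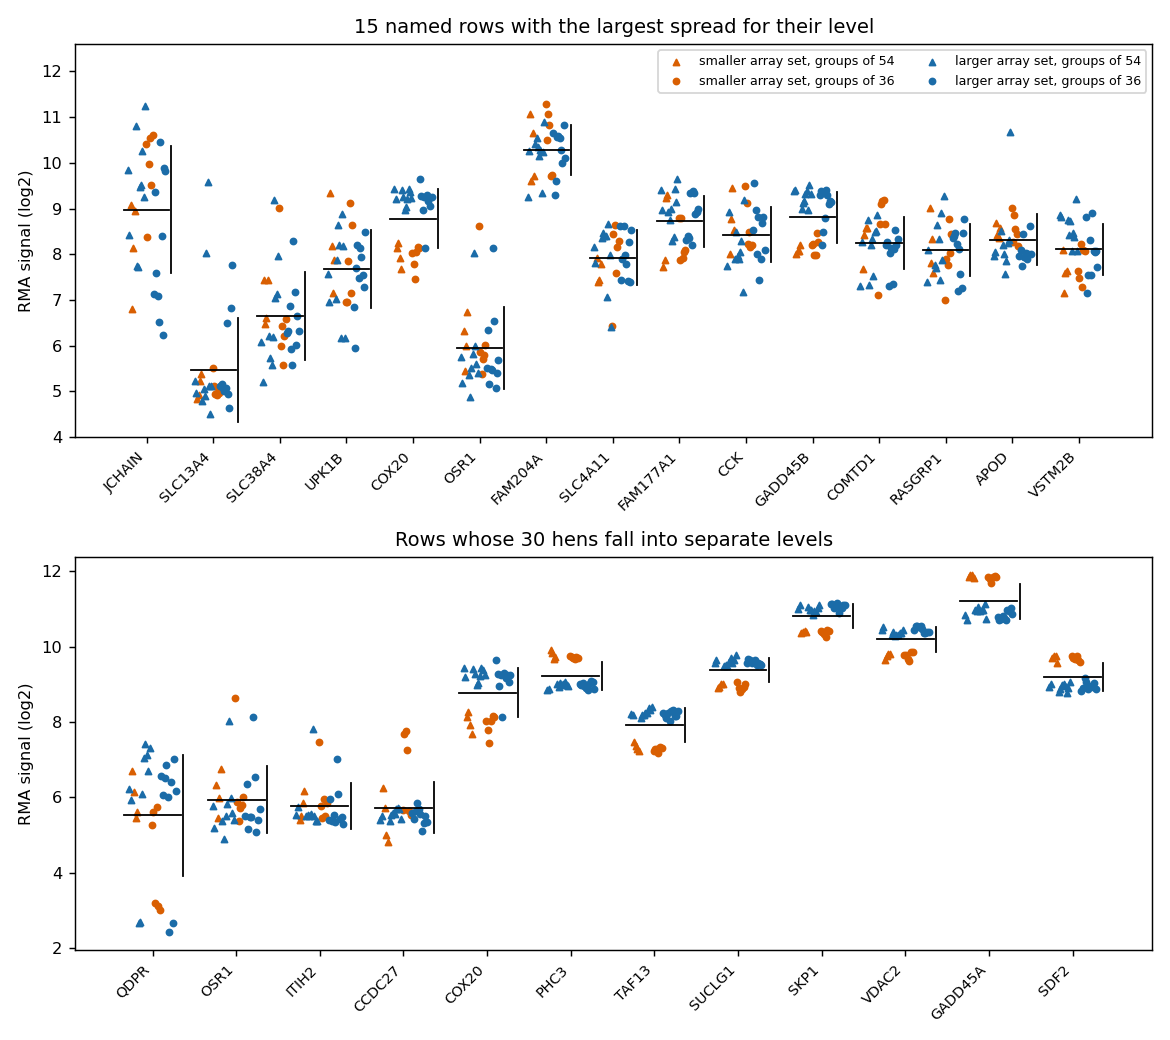
RMA signal (log2, vertical axis) of each of the 30 LSL hens. The upper panel holds the 15 rows with the largest spread among named rows with at least 3 probe sets, and the lower panel 12 rows in separate levels. Horizontal lines are means and vertical lines the mean ± SD; triangles left of circles are hens from groups of 54 and of 36, and orange and blue mark the smaller and the larger array set. JCHAIN ran between 6.23 and 11.25, while 7 hens stood apart at 2.42 to 3.19 in QDPR.

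The counts of list members with a ratio of at least 2 are read against 4.01% of all named genes as deposited and 3.77% with the set means removed. Of 28 pallium genes, 6 had a ratio of at least 2, namely CCK, CADPS2, NR2F2, FEZF2, GRM4 and NEUROD1, and with the set means removed 9 did, without GRM4 but with SATB1, DACH2, LMO4 and NEUROD6. CCK, the neuropeptide cholecystokinin, read 9.55 in hen 34 at the top and 7.16 in hen 53 at the bottom around a median of 8.39, and its ratio was 3.69 in LSL and 3.82 in LB. Of 19 striatum genes 5 reached a ratio of 2, namely TAC1, PENK, DRD3, GPR6 and SYNPR, and 6 did with the set means removed. TAC1, the precursor of substance P, ran between 5.78 in hen 21 and 8.28 in hen 33, and PENK, the precursor of enkephalin, between 7.46 in hen 17 and 9.18 in hen 52. The median pairwise r was −0.00 in the striatum and 0.05 in the pallium list, so the members of neither list varied together as a whole.

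Among 18 immediate early genes, which neurons switch on within minutes of activity, GADD45B, ARC, DUSP4 and EGR1 had ratios of 2 or more (4 genes, and 5 with the set means removed), and the median ratio of the list was 1.60. ARC, a synaptic plasticity protein, ran between 8.60 in hen 3 and 10.26 in hen 35 around a median of 9.64. Of 12 glucocorticoid response genes PDK4 alone reached a ratio of 2 as deposited (3.20), and SGK1 did so as well with the set means removed (2.14). PDK4 lay between 7.25 in hen 34 and 9.06 in hen 35, and this kinase restrains the use of glucose. Of 10 clock genes NPAS2 alone did so (2.42), with 10.39 in hen 35, 9.37 in the next hen and a median of 8.87, and TEF, a clock output gene, was among the even genes with a ratio of 0.42.

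Blood, barrier and interferon response genes were read against the same shares. HBA1 and HBAD, 2 alpha-type globins, had ratios of 2.30 and 2.09, and the other 6 haemoglobin and erythrocyte genes stayed below 2, also with the set means removed. The median pairwise r over the 8 genes was −0.02 as deposited and −0.002 with the set means removed, so the list did not vary together as a whole. ABCB1, the efflux pump of the blood-brain barrier, ran between 5.53 and 7.47 around a median of 6.04, and its ratio was 2.84 in LSL and 0.86 in LB. It was the only one of 17 vessel and meninges genes at 2 or more as deposited (5.88%, near the 4.01% of all named genes). With the set means removed 4 were (ABCB1, ALDH1A2, DCN and PECAM1). Of 18 interferon response genes, IFIT5 and TLR7 reached 2, IFIT5 from 1 probe set and TLR7 with 6.26 ± 0.30 in the smaller and 5.45 ± 0.25 in the larger array set (SD, n = 10 and 20). TLR7 had a ratio of 1.27 with the set means removed.

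No gene reached a ratio of 2 among 6 astrocyte, 11 microglia, 11 MHC, 13 ER stress and 10 cholesterol synthesis genes as deposited. With the set means removed, CRELD2 of the ER stress list did so (2.15). As deposited, 1 of 34 respiratory chain genes (NDUFB9), 3 of 46 cytosolic ribosomal proteins (RPL32, RPL27 and RPL19) and 1 of 13 heat shock genes (BAG3) did so, which is 2.94%, 6.52% and 7.69% of these lists. With the set means removed, 0 respiratory chain genes, 2 ribosomal proteins and 0 heat shock genes did so. BAG3, a partner of HSP70, averaged 9.30 ± 0.24 in the smaller and 8.70 ± 0.19 in the larger array set (SD, n = 10 and 20), and its ratio with the set means removed was 1.82. Of 28 redox genes, 4 reached 2, namely SOD3, PRDX3, PRDX6 and HMOX1, of which PRDX6, a peroxiredoxin, had 1.25 and HMOX1, haem oxygenase, 1.87 with the set means removed, so that 2 remained.

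Of 50 gene pairs that share a cell type or a pathway, 14 had both symbols among the tested rows. Pearson correlations over the 30 hens were tested by two-sided permutation tests with 100000 resamples and adjusted over the 14 pairs after Benjamini and Hochberg. As deposited, 17.4% of all named genes had an r of at least 0.5 with the first component and 24.9% of −0.5 or less. Over all pairs of named genes, 0.336% had an r over 0.6 with the set means removed. Of the 14 pairs, 6 passed, all positive, and these 6 also passed with the set means removed. Their r with the set means removed ran between 0.48 and 0.89, so not all of them lay over 0.6. The share of all pairs that would pass, or that had such an r as deposited, was not computed. Over the means of the 15 pairs of hens with neighbouring numbers, whose values were alike (median intraclass correlation 0.32), HBAD and HBA1 alone passed (r = 0.78, permutation test, adjusted p = 0.010), and the other 5 had an r of 0.53 to 0.61 and an adjusted p of 0.066 to 0.075. The 2 globins HBAD and HBA1 had the highest r with 0.84 (permutation p = 1e-05, the smallest these resamples can give, adjusted p = 0.00014, Spearman rho = 0.71 with permutation p = 2e-05). Hens 17 and 54 led in both, with 9.85 and 9.59 for HBA1 and 8.60 and 8.56 for HBAD. The r was 0.73 without the 2 hens farthest from the median of HBAD, 0.86 within the smaller and 0.91 within the larger array set.

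MX1 and IFIT5, antiviral genes that interferon induces, had r = 0.65 (permutation p = 0.00013, adjusted p = 0.00089, rho = 0.50 with permutation p = 0.0059), and hen 35 led both with 6.67 for MX1 and 7.58 for IFIT5. MX1 and CMPK2 had r = 0.62 (permutation p = 0.00047, adjusted p = 0.0013), but their rho of 0.38 with permutation p = 0.039 did not pass after adjustment (adjusted p = 0.11). Without the 2 hens farthest from the median of MX1, the r was 0.51 with IFIT5 and 0.47 with CMPK2. In the LB hens it was 0.46 with IFIT5 and 0.09 with CMPK2.

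FOS and BTG2, both induced early by activity, had r = 0.63 (permutation p = 0.00019, adjusted p = 0.00089, rho = 0.65 with permutation p = 0.00011). The r was 0.51 with the set means removed, 0.11 within the smaller and 0.63 within the larger set. The ribosomal proteins RPL3 and RPS3 had r = 0.61 (permutation p = 0.00039, adjusted p = 0.0013, rho = 0.52 with permutation p = 0.0041), with 0.60 within the smaller and 0.56 within the larger set. CD74, the invariant chain of MHC class II, and B2M, the light chain of class I, had r = 0.50 (permutation p = 0.0054, adjusted p = 0.013, rho = 0.34 with permutation p = 0.071). This relation rested on hens at the edge of the range, as r was 0.18 without the 2 hens farthest from the median of CD74 (permutation test, adjusted p = 0.50), and 0.63 within the smaller and 0.35 within the larger array set (permutation test in the larger set, adjusted p = 0.21).

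Other immediate early genes gave different values with and without the array sets. EGR1, a transcription factor of neuronal activity, and ARC had r = 0.31 as deposited (permutation p = 0.096, adjusted p = 0.19, rho = 0.24 with permutation p = 0.19) but 0.76 with the set means removed (permutation test, adjusted p = 0.00021), 0.96 within the smaller and 0.52 within the larger set. EGR1 was higher and ARC lower in the smaller set, with 10.45 ± 0.30 in the smaller and 10.21 ± 0.21 in the larger set for EGR1 and 9.36 ± 0.38 in the smaller and 9.76 ± 0.21 in the larger set for ARC (SD, n = 10 and 20). The LB hens gave an r of −0.28 for the pair as deposited and 0.65 with the set means removed. FOS and EGR1 likewise had r = 0.10 as deposited and 0.55 with the set means removed (permutation test, adjusted p = 0.0034).

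The other 6 pairs passed neither as deposited nor with the set means removed. JCHAIN had an r of 0.24 with POU2AF1 in the LSL hens and of −0.50 in the LB hens, and with CD79B of 0.17 in the LSL hens and of −0.43 in the LB hens. The peptide genes SST and NPY had r = 0.14, PENK and TAC1 0.08 and the T cell receptor genes CD3E and CD247 −0.30. The pituitary hormones GH and PRL, listed under the symbol GH1 and added after the values were seen, had r = 0.04 (permutation p = 0.84, adjusted over 15 pairs 0.84, rho = 0.11 with permutation p = 0.55), and the same 6 pairs passed with this one included. With 30 hens such values do not show that these genes are unrelated.

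**Figure D4:**
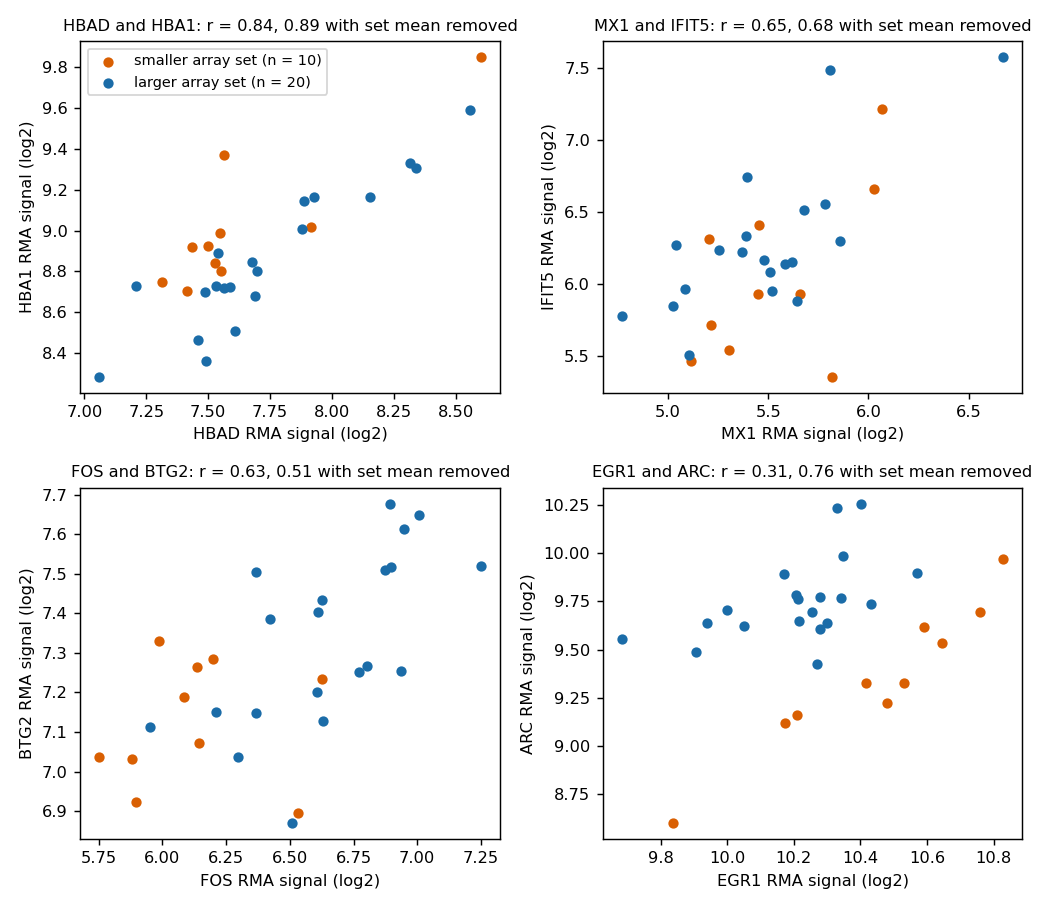
RMA signal (log2 on both axes) of 4 gene pairs in the 30 LSL hens, with the smaller array set in orange (n = 10) and the larger in blue (n = 20). HBAD and HBA1 had r = 0.84 over all hens, while in EGR1 and ARC the smaller set lies below and to the right of the larger one, with r = 0.31 over all hens and 0.76 with the set means removed.

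Genes that vary together were also sought among the 836 named rows with at least 3 probe sets and a ratio of 1.5 or more, by joining rows with an average r of at least 0.6. This gave 25 modules of 4 or more rows with 621 rows in all. As the modules were built from these values, their r in LSL is a description, and the LB hens give the same measure in other samples. The 2 largest modules, with 256 rows led by PSMA4 of the proteasome and with 148 rows led by PHC3 of the Polycomb group, varied with the array sets. The median r was 0.78 in the first and 0.12 with the set means removed, and 0.75 in the second and 0.04 with the set means removed. With the set means removed the ratio was at 1.5 or more in 717 rows, and from these 33 modules with 305 rows were found, of which 30 had a median r of at least 0.3 in the LB hens and 20 of at least 0.5, against a median r of 0.00 over all pairs of named genes. Only wide rows could enter, so a list with many wide genes can place more genes in any module. A ratio of at least 2 was then seen in 9 of 28 pallium, 6 of 19 striatum and 5 of 18 immediate early genes. It was also seen in 4 of 10 myelin, 2 of 12 glucocorticoid response and 0 of 11 microglia genes, against 3.77% of all named genes. These are shares of wide genes and not of module members. Counts of list members in a module are to be read against its size out of the 717 rows, and they were not tested.

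A module of 30 rows, for 28 of the 7288 named genes, included 4 of the 10 myelin genes of the list. It held UGT8, MBP, PLLP and ERMN of myelin, BCAS1 and the small heat shock protein CRYAB. Its median r was 0.73 in the LSL hens, 0.60 without hen 54 and 0.56 in the LB hens. Hen 54 was highest, with 9.46 for CRYAB against 8.63 in the next hen, 9.82 for UGT8 against 9.16 and 9.06 for ERMN against 8.45. The module score, the mean of the rows' z values, was 3.10 in that hen and 0.73 in the fourth hen of the order. The list of 10 myelin genes, drawn up from known biology, had a median pairwise r of 0.48 as deposited and 0.60 with the set means removed, the highest of the 24 lists.

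Of the 27 rows of another module, for 27 of the 7288 named genes, 3 were among the 28 pallium genes of the list and 2 among the 19 striatum genes. It held CCK, BCL11A, CADPS2, DRD3, FOXP1 and EOMES, with a median r of 0.72 in LSL and 0.71 in LB. By module score hens 1, 34 and 54 led it and hens 53, 30 and 40 were lowest: CADPS2, which primes vesicles for release, read 9.43 in hen 1, 9.33 in hen 34 and 9.23 in hen 54, and 7.68 in hen 53, 8.18 in hen 30 and 7.77 in hen 40. CCK and CADPS2 had r = 0.94. As deposited, the median r with CCK was 0.05 over the 19 striatum genes and 0.08 over the 27 other pallium genes. Of the striatum genes, DRD3, FOXP1 and PTPN5 had an r of 0.89, 0.87 and 0.62 with CCK. DRD1, ADORA2A and GNAL ran the other way with −0.61, −0.55 and −0.52. A module of 28 rows with the transcription factors TFAP2D, SATB1 and RORA had a median r of 0.72 in LSL and 0.75 in LB, and hen 53 was lowest for TFAP2D with 7.29 and hen 2 highest with 8.91.

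A module of 13 rows joined UPK1B to UNC5D, DACH2 and the glutamate receptor subunit GRIA4, with hens 34, 54 and 1 lowest, and UPK1B had an r of −0.52 with CCK. A small module of SOSTDC1, RASGRP1, WFS1 and the GABA-synthesising enzyme GAD2 had a median r of 0.68 in LSL and 0.49 in LB. The place of the tissue piece within the cerebrum is not in the labels beyond the posterior site, and its part in these modules was not tested.

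ARC, EGR1, EGR4, DNAJB5 and RAD54L2, of which 3 were among the 18 immediate early genes of the list, formed a module with a median r of 0.71 in LSL and 0.36 in LB, in which hens 21, 35 and 51 were highest and hen 3 was lowest. PDK4, TIPARP, ZBTB16, NID1 and SLC22A3 formed another with 0.76 in LSL and 0.38 in LB, led by hens 54, 35 and 17; PDK4 and ZBTB16 were 2 of the 12 glucocorticoid response genes, a list with a median pairwise r of 0.06. GPR34 and CSF1R, receptors of microglia, varied with ALOX5AP, FGL2 and DAPP1 (median r 0.69 in LSL and 0.46 in LB), and hens 22, 2 and 21 were lowest, but CSF1R was the only one of the 11 listed microglia genes in the module. CSF1R ran between 7.89 in hen 22 and 8.85 in hen 40.

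The modules around SLC13A4 and OSR1 depended on few hens. The 8 rows of the first, among them SLC13A1, SLC13A4, SLC30A8, CST3, CLIC6 and IGFBP7, had a median r of 0.68, which was 0.28 without hens 1, 30, 40 and 51 and 0.13 in the LB hens. The 15 rows of the second, among them SLC26A1, OSR1, ITIH2, ZIC1, SLC38A4, DCN and NOV, had a median r of 0.69, which was 0.27 without these 4 hens. In the LB hens, however, the second kept a median r of 0.52. A module of ADCY5, STC1, APOD, CALB2 and KCNK2 was led by hen 54 with a score of 4.30 and had a median r of 0.77 in LSL and 0.18 in LB. Without hen 54 it was 0.32, and within the smaller array set, which does not hold that hen, 0.02, against 0.83 within the larger set.

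**Figure D5:**
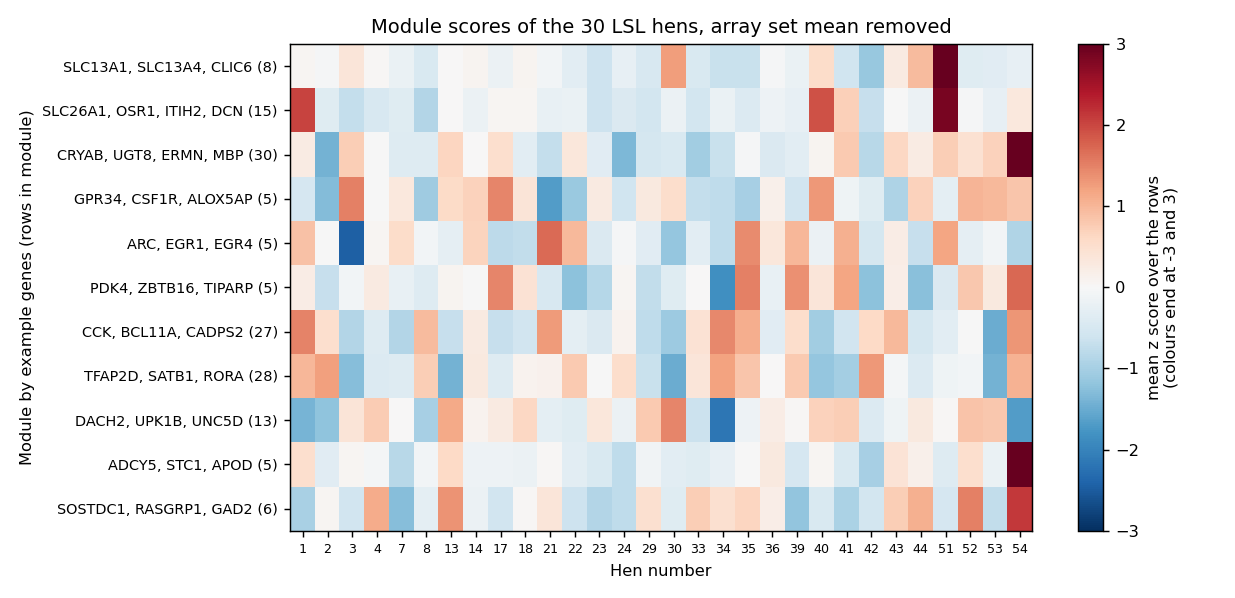
Scores of 11 modules (rows, with example genes and the number of table rows) in each of the 30 LSL hens (columns, by hen number) after removal of the set means; red is above and blue below the mean of the hens. Hen 51 was highest in the modules of SLC13A4 and OSR1, and hen 54 had a score of 3.10 in the module of CRYAB and myelin genes and of 4.30 in that of ADCY5.

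Rows were called separate in level where a gap of at least 0.4, and at least 2 times the larger SD of the sides, divided the hens with at least 3 on each side. This was met by 54 rows or 0.331% of those tested, of which 24 had a name. In 33 rows, 18 of them named, the split was that between the array sets. Among the named rows PHC3 was the clearest, with the 10 hens of the smaller set at 9.66 or more and the 20 of the larger set at 9.09 or less. GADD45A, which responds to DNA damage, TAF13, SKP1, VDAC2, SUCLG1, CNTNAP2 and CCNK were split in the same way.

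Another 6 named rows split otherwise. QDPR, the dihydropteridine reductase that recycles the cofactor of catecholamine and serotonin synthesis, had the widest gap: hens 40, 23, 42, 24, 18, 17 and 3 read 2.42, 2.65, 2.66, 2.70, 3.00, 3.11 and 3.19, and the other 23 hens lay between 5.27 and 7.43. The low hens came from both array sets, 3 from the smaller and 4 from the larger, and the lower level lies under the limit on low signal. The row holds 2 probe sets, and what divides the hens at it was not tested. In the LB hens no such gap was seen, as QDPR lay between 6.33 and 7.48.

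OSR1 and ITIH2, a hyaluronan-binding matrix protein, were split off in the same 3 hens 51, 1 and 40: ITIH2 read 7.81, 7.46 and 7.02 there, against 6.16 or less in the others. CCDC27 was high in hens 3, 2 and 4 with 7.77, 7.67 and 7.25, against 6.25 or less in the others, and the microRNA row MIR1611 rests on 1 probe set and was high in the same 3 hens. COX20 split 11 hens from 19, the lower ones being the 10 of the smaller set and hen 39. With the set means removed 15 rows were separate, 5 of them named (CCDC27, ITIH2, OSR1, QDPR and SLC26A1). In the LB hens 42 rows were separate and 15 in both lines, which is 27.8% of the LSL and 35.7% of the LB rows. The array sets also run through the LB hens, with 18 and 42 arrays over all 60 hens. Of the 15 shared rows, only 2 had a split in LSL other than that of the array sets.

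Group size was compared only as a check. With limma and Benjamini-Hochberg adjustment over 16317 rows, 0 rows passed for hens of compartments of 54 against those of 36 (0% called, smallest adjusted p = 0.999), and 528 rows (3.24%) had an unadjusted p under 0.05. The named rows with the smallest p were SLMO2, GPR162, LYSMD2, FZD9 and SSTR2. SLMO2 averaged 8.73 ± 0.13 in groups of 54 and 8.55 ± 0.13 in groups of 36 (SD, n = 14 and 16), a difference of 0.18 ± 0.05 (SE). GPR162 averaged 8.87 ± 0.14 in groups of 54 and 9.04 ± 0.13 in groups of 36, with overlapping hens.

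Of the 15 widest named rows with at least 3 probe sets, VSTM2B had the largest difference with 0.36 ± 0.18 (SE, limma adjusted p = 0.999). It averaged 8.30 ± 0.57 in groups of 54 and 7.94 ± 0.50 in groups of 36. The side of a gap was set against group size in the 54 separate rows by Fisher's exact test, and 0 passed (two-sided, 0 rows at an unadjusted p under 0.05, smallest p = 0.090, smallest adjusted p = 0.85). Most of these tests could not pass. In 33 rows the split was that of the array sets, so each gave the same value (Fisher's exact test, p = 0.71). In 14 rows the smaller side held 3 hens, and even 3 hens all from groups of 54 give p = 0.090 by this test. QDPR had 2 of 14 hens from groups of 54 and 5 of 16 from groups of 36 on its lower level (Fisher's exact test, p = 0.40). These values do not show that the group sizes were alike.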

How the data were processed

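Labelled RNA of each cerebrum was hybridised to a ChiGene-1_0-st array by the authors, who normalised the scans with RMA (background correction, quantile normalisation, log2) in GeneSpring GX and deposited log2 values per row in a table of 20399 rows; a second deposited table held the same values (largest difference 0 over 20394 rows). Arrays give no read depth, so precision is limited by how many were run. The genome build is not given in the sources used here. The 60 columns were matched to hens by their numbers, and groups came from the titles.

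Here 2 named control rows and 1 empty row were left out, and rows with a mean under the 20th percentile over all arrays (5.08) were not tested, a limit the methods name without a rule for several arrays. Names came from the platform annotation (7453 rows) or the study's list (92 rows), with old symbols updated by hand through RefSeq; 81 rows had several names and 8691 none. The spread ratio, the gap rule, the permutation tests and average-linkage modules were computed with Python 3.11.15, numpy 2.4.6 and scipy 1.17.1, and group size with limma 3.58.1 (R 4.3.3; lmFit, eBayes) at a threshold of 0.05, in place of the unpaired test of the methods, which was an alternative. Named genes were the 10 highest rows, the 15 widest and 5 tightest rows with at least 3 probe sets, up to 12 rows in separate levels, up to 6 genes per module, up to 4 per gene list with the genes of the pairs, the 5 rows with the smallest p for group size, and the 3 rows most like each of the 5 widest; any other gene is named from its list or module after its values were seen. The hens, lists, pairs and rules were chosen with earlier results of these data known. The array sets were found from the values of all 60 arrays. They were divided at the largest gap on the first principal component after the mean of each line and group size was removed.

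The spread ratio, the gap rule and the limma fit were tested on simulated data, the permutation tests and modules were not. With 14 against 16 hens and 16317 rows, limma recovered 92 of 100 rows changed by 0.5 on the log2 scale. It recovered 99 of 100 changed by 1.0, with 10 false calls. In the measured hens, the array sets took 25.6% of the variance of tested rows, and the consensus correlation of hen pairs was 0.34. How many such changes limma would recover in the measured hens was not tested. Alternatives were other filters, gap sizes, cuts, windows and measures of spread, the array set as a block, the larger set alone, hen pairs (odd and next even number) and each hen left out.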

Additional observations from a re-analysis of the deposited data

How the results depend on the processing

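The count of separate rows was 54 as deposited, 15 with the set means removed, 19 in the larger array set alone, 97 with a gap of at least 0.3 and 28 with a gap of 3 times the larger SD. The sum of rows in modules was 621 of 836 as deposited and 305 of 717 with the set means removed. The first component took 26.5% of the variance, 11.9% with the set means removed, 21.2% without the filter and 25.4% to 27.4% with each hen left out in turn. Of the 14 gene pairs, 6 passed as deposited and 8 with the set means removed, 7 in the larger set and 5 without the 2 farthest hens; over the means of the 15 pairs of hens with neighbouring numbers (replicate block) 1 passed, HBAD and HBA1. No label says that neighbouring numbers pair the hens, whose values correlated within pairs (median intraclass correlation 0.32 as deposited and 0.10 with the set means removed). Group size gave 0 rows in all alternatives, also with the hen pair as a random block (183 rows with an unadjusted p under 0.05), the array set as a block (804), the larger set alone (1062), all 60 hens (939), the methods' t-test (554) and each hen left out. All 15 wide rows kept a ratio of at least 2 in every alternative except the median absolute deviation, where 14 did and SLC13A4 had 1.06 against 5.10. Leaving out rows of control form, or hens 1, 30, 40 and 51, leaving out hen 54 and adding GH and PRL were chosen after seeing the data; without these 4 hens 57 rows were separate and 6 pairs passed. No r that passed turned negative in an alternative, but among pairs that did not pass the sign changed, as for SST and NPY (0.14 as deposited, −0.11 with the set means removed) and FOS and EGR1 (0.10 as deposited, −0.14 over hen pairs). Of the ratios of the 15 wide rows, 34 values under the alternatives differed from the deposited one by more than its jackknife SE; of the r values of the pairs, 4 passed newly and 7 no longer passed.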

Other observations

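KCNJ8 and ABCC9, the pore and the regulatory subunit of the potassium channel of pericytes and vascular muscle, formed a module with the noradrenaline transporter SLC6A2 and URM1, with a median r of 0.66 in the LSL hens and 0.51 in the LB hens. KCNJ8 read 8.13 in hens 18 and 39 and 8.11 in hens 17 and 14, with a median of 7.46 and a lowest signal of 6.92, and ABCC9 read 8.15, 8.14 and 8.12 in hens 17, 18 and 39, with a lowest signal of 6.99. BHLHE40, a clock gene, varied with the creatine transporter SLC6A8, the serotonin receptor HTR2A and CNTNAP1, at a median r of 0.67 in LSL and 0.51 in LB.

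Hen 54 was the highest hen in the modules of CRYAB, PAPPA, SOSTDC1, ADCY5, PDK4, DHRSX and GRIN2A, and was among the 3 lowest in those of ATP8A2, UPK1B, UBQLN4, NR2F2, ARC, FAM64A, RXFP1, NPTXR and CHRM3. Of the 54 rows in separate levels, 30 did not carry exactly 1 gene name, and 17 rested on 1 probe set.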
